A study of Mus musculus with 30 samples.

Results

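Microglia of Saline offspring were compared between embryonic day 17 (E17) and postnatal day 7 (P7), the step that carries these cells across birth. The comparison is made between 6 of the 30 libraries of the series, 3 labelled E17 Saline and 3 labelled P7 Saline, taken by their labels. All were C57BL/6J mice whose mothers were given saline during pregnancy, and the cells were taken from whole brain with CD11B magnetic beads. Each E17 library pooled the brains of 1 litter and each P7 library pooled 3 brains, from animals of both sexes. The same age step in MIA offspring (maternal immune activation, with poly(I:C) given to the mother in place of saline) was measured in 6 other libraries, 3 labelled E17 MIA and 3 labelled P7 MIA. Levels at later ages come from 3 P20 Saline libraries and 3 P60 libraries of Saline offspring kept on a control chow (Saline + CTRL). The beads take any cell that carries CD11B, so that other myeloid cells are retained along with microglia.

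Microglia enter the brain from the yolk sac early in development, divide there before and shortly after birth, and take on the gene set of resting adult microglia over the first postnatal weeks. In the first postnatal week some of them also express genes of phagocytosis and lysosomal digestion, and clear dying neurons and surplus newborn oligodendrocytes. Over the same days the brain around them changes, as cortical neurogenesis ends and the formation of astrocytes and oligodendrocytes begins, and the pup passes from placental supply to milk and to breathing air.

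The values are TPM of 14225 transcripts, a level scaled to the length of the transcript and to the total of the library. Steps between the low values put the depth at about 10380000 to 12760000 counted reads per library, so that 1 read on a transcript of 1 kb was worth 0.212 to 0.264 TPM and levels near 1 TPM rest on few reads. Libraries of 1 age correlated at r = 0.978 to 0.991 across transcripts on the log2(TPM + 1) scale, and libraries of different ages at 0.964 to 0.978. Defining microglial markers were abundant at both ages. Csf1r, the receptor microglia need to survive, was at 4050.4, 4990.5 and 4808 TPM at E17 and at 4990.2, 5107 and 5606 at P7.

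Between E17 and P7, 440 transcripts rose (3.09% of those tested) and 175 fell (1.23%), 615 in all (4.32%), by limma on log2(TPM + 1) with Benjamini-Hochberg adjusted p under 0.05. The fold changes below are differences of mean log2(TPM + 1), given with their SE. At a log2 fold change of at least 1 in size, 219 of the transcripts were higher and 67 were lower. The 3 libraries of one age lay entirely above the 3 of the other for 609 of the 615, and for 3974 of all 14225 transcripts (27.9%). The median log2 fold change of all transcripts was 0.05. Rises made up 71.5% of the calls, and 58.2% (345 higher and 248 lower) after quantile normalization. The number of calls was 344, 299 and 280 without E17 Saline 1, 2 and 3 in turn, and 280, 452 and 788 without P7 Saline 1, 2 and 3. It was 1013 with the summed level of markers of other cells as a covariate.

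Of 106 called genes followed under 14 alternatives, 45 kept an adjusted p under 0.05 in each, and none changed sign. Among macrophage and microglial genes these were Gpr183, Gpnmb, Atp6v0d2, Hgsnat, Ms4a4c, Cbr2, Cd209f, Ccl24, Ccl8, Mgl2, Retnla and Cd4. Among genes of metabolism and growth they were Tpi1, Pgk1, Pgam1, Pkm, Gapdh, Slc16a1, Srxn1, Igf2bp1, Gdf15 and Bmp2, and among genes of signals and immunity Cxcl14, Tnfsf9, Il6st, Nfkbia, Nr3c1, C4b and Olfm4. The rest were the glial genes Ugt8a, Gpr17, Sox10, Mag, Myrf, Fa2h, Cnp, 9630013A20Rik, Gfap, Ntsr2 and Gpr37l1, the neuronal genes Neurod6, Tbr1 and Mpped1, and the globins Hba-x and Hbb-y. Fam162a, Pfkl, Lin28b, Ifi27l2a and Tlr5 kept their call without each library and lost it under another setting. The other 56 lost their call without at least 1 of the 6 libraries, at an adjusted p whose highest value was 0.0608 for Tnf and 0.331 for Cirbp, with the other genes in between. By library, 30, 44 and 50 of the 106 lost their call without E17 Saline 1, 2 and 3, and 48, 30 and 18 without P7 Saline 1, 2 and 3. Calls described below that were lost in this way include Ccl5 (adjusted p up to 0.0678), Bnip3 (0.0664), Glrx (0.0682), Gpi1 (0.1003), Ccng1 (0.112), Insig1 (0.111), H2-Aa (0.118), Mrc1 (0.139), Cd5l (0.154), Cd52 (0.165), Cxcl2 (0.227) and Mif (0.236).

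**Figure D1:**
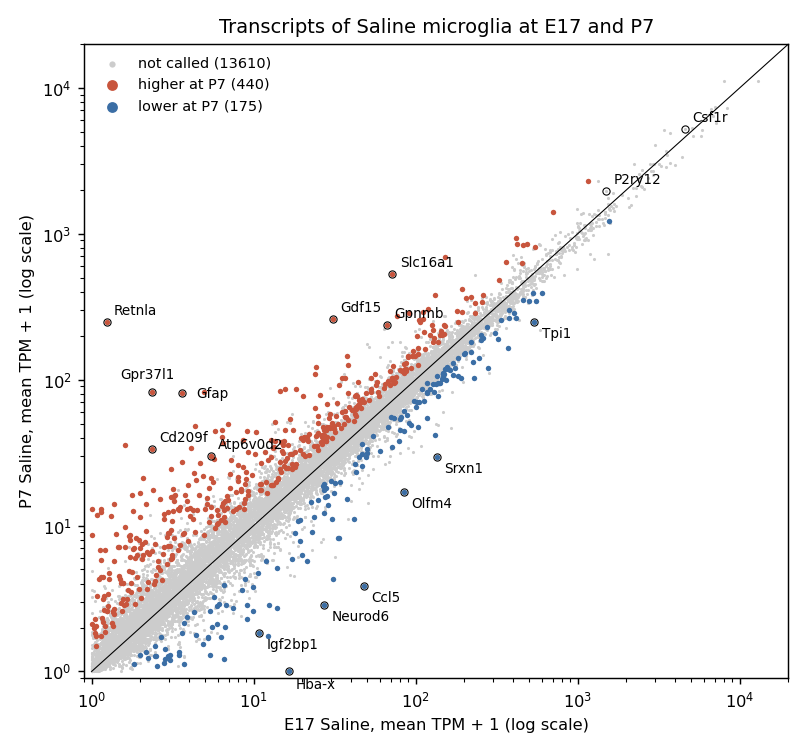
Mean TPM + 1 of each transcript in the 3 E17 Saline libraries (horizontal, log scale) and the 3 P7 Saline libraries (vertical, log scale), with transcripts that rose (440) and fell (175) in colour and the line of equality in black. The microglial markers Csf1r and P2ry12 lie near the line, while Retnla, Slc16a1 and Gdf15 lie far above it and Srxn1 and Ccl5 far below.

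Genes that define microglia, such as Csf1r and P2ry12, were already at a high level at E17. Simulated log2 changes of 0.5 were called in 30% of cases, so a gene that did not pass may still have moved. Of 35 transcripts of homeostatic microglial genes, 2 rose and none fell, a share of 5.71% beside 3.09% of all transcripts, and their median log2 fold change was 0.11. P2ry12, the receptor with which microglia sense nucleotides, was at 1298, 1656 and 1537 TPM at E17 and at 1434, 2099 and 2358 at P7. The 2 ages overlapped, and the log2 fold change of 0.37 ± 0.24 (SE) did not pass (adjusted p = 0.424). Tmem119, a membrane protein of microglia, was at 386, 586 and 487 TPM at E17 and at 341, 583 and 558 at P7, for a log2 fold change of 0.0040 ± 0.22 (adjusted p = 0.996) that was negative after median-ratio scaling. The fractalkine receptor Cx3cr1 (log2 fold change -0.03), the complement component C1qa (-0.19), Fcrls (-0.41) and the transcription factor Sall1 (0.55) did not pass either. Of 31 transcripts of microglial and macrophage transcription factors none passed, among them Spi1, which encodes PU.1, at a mean of 855 TPM at E17 and 807 at P7.

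The 2 members that rose were Gpr183 and Upk1b. Gpr183, a receptor that guides immune cells along oxysterols, was at 31.0, 40.4 and 35.9 TPM at E17 and at 104, 76.4 and 124 at P7, a log2 fold change of 1.46 ± 0.23 (adjusted p = 0.000552) with every P7 library above every E17 library. Upk1b, a tetraspanin, was at 0.96, 0.99 and 1.65 TPM at E17 and at 5.19, 6.67 and 4.83 at P7 (adjusted p = 0.0298), a rise at low level.

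No gene of DNA replication or mitosis passed. None of 46 transcripts of DNA replication and none of 60 of mitosis and cytokinesis passed in either direction, with median log2 fold changes of -0.06 and 0.10. Mki67, a marker of dividing cells, was at 149, 154 and 183 TPM at E17 and at 176, 171 and 200 at P7 (log2 fold change 0.17 ± 0.24, adjusted p = 0.760). Pcna, the sliding clamp of DNA polymerase, was at 339, 394 and 344 TPM at E17 and at 305, 317 and 297 at P7, a log2 fold change of -0.22 ± 0.17 (adjusted p = 0.519). Among 34 transcripts of cell cycle entry and arrest, 2 at a few TPM rose, of the inhibitor Cdkn2a (log2 fold change 1.72) and of Rbl1 (0.92), and Ccng1, a target of p53, fell from 145, 154 and 140 TPM to 76.6, 107 and 126 (log2 fold change -0.53 ± 0.12, adjusted p = 0.0145).

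Among 28 transcripts of genes linked to neonatal phagocytic and disease-associated microglia, 2 rose and 2 fell, and their median log2 fold change was 0.04. Each count is 7.14% of the list, beside 3.09% of all transcripts that rose and 1.23% that fell. Gpnmb, a transmembrane glycoprotein of phagocytic cells (NM_053110, gene at chr6:49036518-49058182 in GRCm38), was at 56.8, 79.5 and 59.1 TPM at E17 and at 221, 256 and 229 at P7. The lowest P7 library was far above the highest E17 library, for a log2 fold change of 1.85 ± 0.33 (adjusted p = 0.00181). Itgax, which encodes CD11C, rose from 48.2, 62.6 and 59.1 TPM to 74.2, 105 and 107 (log2 fold change 0.73 ± 0.21, adjusted p = 0.0458), a call lost under 9 of the 14 alternatives. Cd5l, a secreted protein of macrophages, fell from 14.4, 21.5 and 29.9 TPM to 7.08, 9.38 and 7.59, and Cd52, a small surface glycoprotein of leukocytes, from 498, 571 and 597 TPM to 280, 352 and 402.

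Of 56 lysosomal transcripts 2 rose (3.57%, near the share of all transcripts) and none fell. Atp6v0d2, a subunit of the vacuolar proton pump that acidifies lysosomes, was at 4.64, 5.33 and 3.31 TPM at E17 and at 22.2, 32.0 and 32.3 at P7. That is a log2 fold change of 2.46 ± 0.27 (adjusted p = 4.16e-06), and the call held under every alternative. Hgsnat, which acetylates heparan sulfate in the lysosome and was picked outside the lists after its values were seen, rose from 93.7, 112 and 105 TPM to 324, 221 and 216.

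Glycolysis was the metabolic list with the most calls. Of its 25 transcripts 9 fell (36.0%, beside 1.23% of all transcripts) and 1 rose, and their median log2 fold change was -0.40. Depending on the alternative, 7 to 10 of them fell. Triosephosphate isomerase (Tpi1) was at 490, 631 and 500 TPM at E17 and at 215, 277 and 252 at P7, with no overlap and a log2 fold change of -1.12 ± 0.15 (adjusted p = 7.97e-05). Pfkl, the liver-type phosphofructokinase that commits sugar to the pathway, was at 226, 250 and 208 TPM at E17 and at 51.0, 119 and 134 at P7, a log2 fold change of -1.28 ± 0.20 (adjusted p = 0.0004) with P7 Saline 1 well below the other P7 libraries. Pgam1, a phosphoglycerate mutase, fell from 67.5, 79.0 and 63.4 TPM to 30.4, 38.1 and 32.2.

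The other members that fell are given to complete the list. Phosphoglycerate kinase (Pgk1) was at 79.0, 94.5 and 76.7 TPM at E17 and at 39.1, 48.2 and 42.6 at P7 (log2 fold change -0.93 ± 0.18, adjusted p = 0.00319). Gpi1, the glucose-6-phosphate isomerase, fell from 378, 435 and 390 TPM to 262, 301 and 298. Gapdh fell from 86.6, 90.0 and 86.8 TPM to 62.0, 53.4 and 53.2, both transcripts of the pyruvate kinase Pkm fell (log2 fold changes -0.85 and -0.83), and so did 1 of 2 Aldoa transcripts, at under 10 TPM. The exception was Slc16a1, a transporter of lactate, pyruvate and ketone bodies (NM_009196, gene at chr3:104638664-104658462), at 89.6, 54.9 and 68.2 TPM at E17 and at 462, 560 and 564 at P7. Its log2 fold change was 2.90 ± 0.29 (adjusted p = 1.6e-06). Slc16a1 is also on the list of endothelial and mural cells, whose summed level was 2162 to 6524 TPM at E17 and 5274 to 5960.3 at P7; the part of those cells in its rise was not tested.

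Ldha and Eno1, abundant enzymes of most cells, were listed at 1.44 to 2.60 and at 2.02 to 4.52 TPM in these 6 libraries, and how reads shared by transcripts or processed copies of a gene were counted is not given in the sources used here. Levels are therefore compared between ages for 1 transcript at a time and not between genes, and those of Gapdh, Pkm, Aldoa and Pgam1, which have such copies or several transcripts, are uncertain. No transcript of the 68 of oxidative phosphorylation passed, and their median log2 fold change was -0.04.

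The promoters of glycolytic genes are shown because several members of this list fell. Promoters (250 bases before to 50 after the start site, RefSeq on GRCm38) were searched for ACGTG on both strands, the core bound by hypoxia-inducible factors, which lies also within the CACGTG element bound by other factors. This choice was made after the glycolytic values were seen. The letters occurred in 3 of the 8 promoters of glycolytic genes that fell (37.5%), in 9 of the 20 of the whole list (45.0%) and in 2620 of 10525 promoters of measured genes (24.9%). The 3 promoters that hold them are shown with the matches in capitals, as either ACGTG or its reverse complement CACGT, and read 5′ to 3′ on the strand of the gene.
Pgk1 (chrX:106186850-106187149, plus strand): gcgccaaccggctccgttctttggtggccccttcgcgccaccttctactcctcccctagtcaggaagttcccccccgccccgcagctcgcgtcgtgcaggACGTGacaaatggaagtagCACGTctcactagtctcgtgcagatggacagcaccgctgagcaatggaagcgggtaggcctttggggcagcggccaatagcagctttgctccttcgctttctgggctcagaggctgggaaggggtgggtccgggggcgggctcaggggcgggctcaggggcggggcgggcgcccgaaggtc
Pgam1 (chr19:41911621-41911920, plus strand): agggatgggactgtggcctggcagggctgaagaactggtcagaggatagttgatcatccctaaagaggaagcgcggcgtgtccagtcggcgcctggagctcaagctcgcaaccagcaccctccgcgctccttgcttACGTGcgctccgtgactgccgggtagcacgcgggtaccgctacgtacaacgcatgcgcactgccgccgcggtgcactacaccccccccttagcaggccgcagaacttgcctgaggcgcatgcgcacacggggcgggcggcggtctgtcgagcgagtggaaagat
Gapdh (chr6:125165724-125166023, minus strand): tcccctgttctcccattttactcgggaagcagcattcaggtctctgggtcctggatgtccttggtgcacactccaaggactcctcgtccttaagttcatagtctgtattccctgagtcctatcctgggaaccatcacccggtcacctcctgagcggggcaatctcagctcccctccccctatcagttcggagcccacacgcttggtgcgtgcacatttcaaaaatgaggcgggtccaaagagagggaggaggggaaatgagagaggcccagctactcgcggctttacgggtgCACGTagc
Pgk1 holds 2 matches, Pgam1 and Gapdh 1 each, and the promoters of Aldoa, Gpi1, Pfkl, Pkm and Tpi1 none. The window of Aldoa lies at the start of its transcript that did not pass. Values of 3 further genes, picked after they were seen and with no list behind them, are given here. No list of targets of hypoxia-inducible factors was made, and the part of these factors in the falls was not tested. The mitophagy receptor Bnip3 was at 52.7, 74.5 and 49.6 TPM at E17 and at 28.4, 31.3 and 34.3 at P7 (log2 fold change -0.87 ± 0.19, adjusted p = 0.00819). The prolyl hydroxylase Egln3 fell from 32.5, 31.6 and 27.5 TPM to 14.8, 18.6 and 13.8, and its call was lost under 8 of the 14 alternatives, without each of the 6 libraries among them. Fam162a fell from 186, 197 and 183 TPM to 58.2, 123 and 125.

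**Figure D2:**
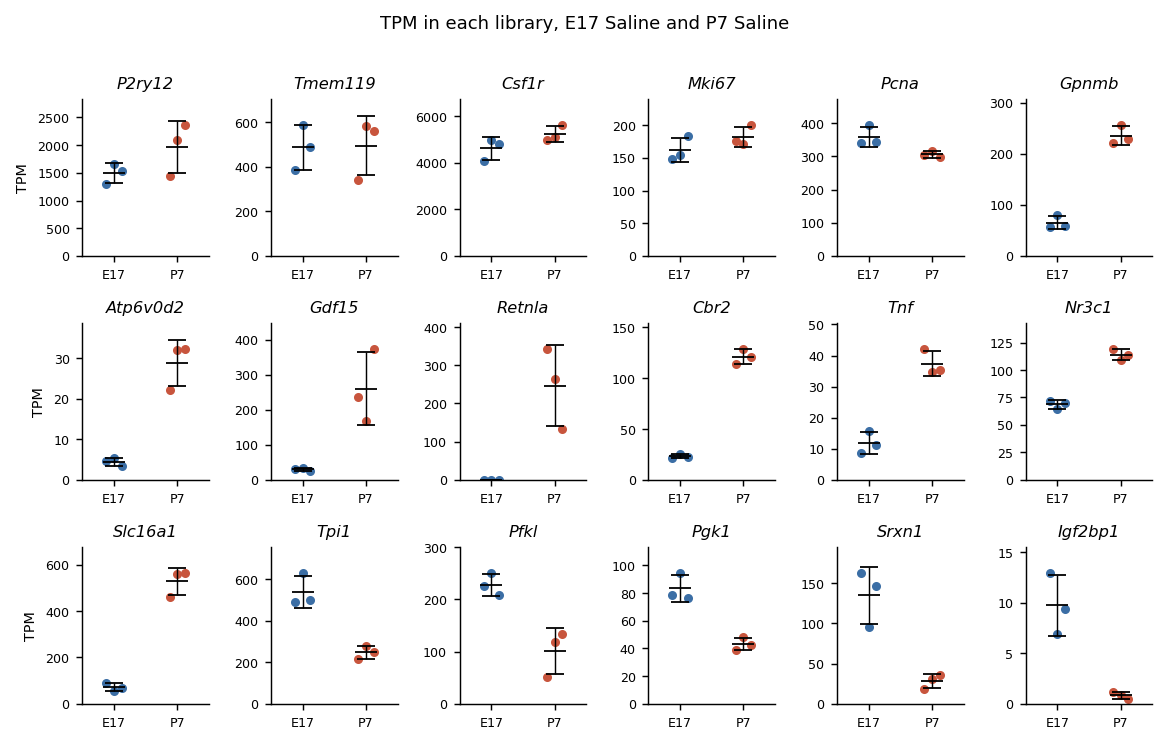
TPM of 18 genes in each E17 Saline (left of each panel) and P7 Saline library (right), as points, with the mean and SD of 3 libraries in black. The microglial and division genes shown did not pass, Gpnmb, Atp6v0d2, Gdf15, Retnla, Cbr2, Tnf, Nr3c1 and Slc16a1 are higher in every P7 library, and Tpi1, Pfkl, Pgk1, Srxn1 and Igf2bp1 are lower in every one.

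The RNA-binding proteins Igf2bp1 and Lin28b of fetal tissue fell. Of 19 oncofetal and imprinted growth transcripts 2 fell (10.5%) and none rose, with a median log2 fold change of -0.60 and 17 of 19 below 0. After quantile normalization 4 fell, and 9 with the other-cell covariate. Igf2bp1, which stabilizes messenger RNAs of growth, was at 12.96, 6.94 and 9.43 TPM at E17 and at 1.22, 0.84 and 0.47 at P7, a log2 fold change of -2.53 ± 0.25 (adjusted p = 1.6e-06). Lin28b, which blocks maturation of let-7 microRNAs, fell from 9.58, 8.17 and 11.3 TPM to 5.20, 3.45 and 2.56. Of 74 cytosolic ribosomal protein transcripts none passed. Of 42 of ribosome biogenesis 2 fell (4.76%, beside 1.23% of all transcripts), Tsr1 (from a mean of 49.2 to 30.6 TPM) and Nop10 (from 116 to 80.8). The Nop10 call was lost under 10 of the 14 alternatives and that of Tsr1 under 5.

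Of 44 cytokine and chemokine transcripts 9 rose (20.5%) and 4 fell (9.09%). Without E17 Saline 1, 2 and 3 in turn 5, 6 and 6 rose and 2, 1 and 1 fell. Without P7 Saline 1, 2 and 3 in turn 5, 6 and 8 rose and 0, 1 and 2 fell. The largest rise of the list, Ccl8 (log2 fold change 2.94), is also on the list of border macrophages and is described with them. The part of other cells in the rises of this list was not tested. Tnf was at 8.56, 15.6 and 11.1 TPM at E17 and at 42.1, 34.7 and 35.5 at P7 (log2 fold change 1.62 ± 0.36, adjusted p = 0.0109). Tnfsf9, the ligand of 4-1BB, rose from 22.2, 19.2 and 16.2 TPM to 78.7, 53.1 and 95.7, and Cxcl14, a chemokine, from 3.35, 2.39 and 4.04 TPM to 23.98, 26.9 and 14.5. Cxcl2, a neutrophil chemokine, rose from 358, 506 and 375 TPM to 1203, 789 and 792 (adjusted p = 0.0443); it is also on the list of immediate early and dissociation genes, whose sum was 33871 to 39379 TPM at E17 and 45643 to 47132 at P7, and the part of dissociation in its rise was not tested. In the other direction Ccl5 was at 13.1, 34.2 and 92.8 TPM at E17 and at 1.48, 4 and 3.04 at P7, a log2 fold change of -3.29 ± 0.70 (adjusted p = 0.00829) with a wide spread at E17. Mif, a macrophage cytokine, fell from 155, 206 and 148 TPM to 111, 98.4 and 112. Cxcl9 and the interleukin-1 antagonist Il1rn, both under 7 TPM, were the other members that fell.

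Among 32 growth factor and neurotrophic ligand transcripts 3 rose (9.38%, beside 3.09% of all transcripts) and 1 fell (3.13%, beside 1.23%). Gdf15, a stress-induced hormone of the TGF-beta family (NM_011819, chr8), was at 32.2, 33.9 and 23.96 TPM at E17 and at 238, 168 and 373 at P7, 8.66 times higher on average, for a log2 fold change of 3.01 ± 0.31 (adjusted p = 1.63e-06). Pdgfa, a mitogen of oligodendrocyte progenitors, rose from 34.0, 21.3 and 25.1 TPM to 42.5, 47.1 and 43.3, and Igfbp4, which binds insulin-like growth factors, from 593, 488 and 557 TPM to 756, 833 and 844. In TGF-beta and BMP signalling 3 of 47 transcripts rose (6.38%) and none fell, and 1 rose without E17 Saline 2, E17 Saline 3 or P7 Saline 1. Bmp2 was at 15.8, 16.1 and 15.2 TPM at E17 and at 41.9, 45.9 and 69.7 at P7 (log2 fold change 1.65 ± 0.26, adjusted p = 0.000625). Smad1, which carries BMP signals to the nucleus (log2 fold change 0.64), and the repressor Ski (0.51) rose less. The Ski call was lost under 9 of the 14 alternatives and that of Smad1 under 6.

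Of 48 transcripts of chemokine and cytokine receptors 4 rose (8.33%) and none fell, with 1 rise without E17 Saline 3 and 12 with the other-cell covariate. Il6st, the shared signalling subunit of the interleukin-6 family known as gp130, was at 125, 129 and 122 TPM at E17 and at 242, 215 and 252 at P7 (log2 fold change 0.91 ± 0.13, adjusted p = 0.000144). Both transcripts of Ccrl2, a receptor that presents chemerin, rose, and Tnfrsf17 rose from 5.72, 6.73 and 8.55 TPM to 12.9, 20.6 and 23.9. The Tnfrsf17 call was lost under 10 of the 14 alternatives, without each of the 6 libraries among them. Among 44 pattern recognition and inflammasome transcripts 2 rose (4.55%), the Toll-like receptors Tlr5 (log2 fold change 1.08) and Tlr6 (0.72). Fc, DAP12-linked and inhibitory receptors had 2 rises in 50 (4.0%, beside 3.09% of all transcripts), the sialic acid receptors Siglec1 (1.05) and Cd33 (0.69). Each of these 2 calls was lost under 8 of the 14 alternatives. The list had 0 rises after median-ratio scaling, after quantile normalization and without any 1 library except P7 Saline 2, where it had 1. Its 1 fall was Ms4a4c, from 9.81, 9.90 and 14.6 TPM to 0.76, 3.70 and 1.07.

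Genes of antigen presentation and of the interferon response had few calls in number, but not a low share. The share that rose was above the 3.09% of all transcripts in each list. It was 8.33% for MHC class II and 3.33% for the interferon response, and 2 of 20 for MHC class I. The share of interferon response transcripts that fell was above the 1.23% of all transcripts, while none of either MHC class fell. H2-Aa, an MHC class II chain, was at 20.2, 29.0 and 23.04 TPM at E17 and at 50.1, 71.8 and 44.2 at P7 (log2 fold change 1.15 ± 0.30, adjusted p = 0.0258) and was the only call among 12 class II transcripts, a count that was 0 after median-ratio scaling and quantile normalization and without E17 Saline 1 or 3 or P7 Saline 1 or 2, 3 with the replicate block and 5 with the other-cell covariate. The peptide transporter Tap2 rose from 68.9, 74.4 and 80.0 TPM to 105, 104 and 99.1, and with Tap1 made up the 2 calls among 20 class I transcripts, which were 0 after both scalings and without any 1 library. Of 60 interferon response transcripts 2 rose and 3 fell, and none fell without E17 Saline 2, E17 Saline 3, P7 Saline 1 or P7 Saline 2, with Ifi27l2a at a log2 fold change of 1.02 and Ifi204 at -0.88. Among 19 complement transcripts C4b, a component of the classical pathway, was at 1.29, 0.73 and 1.45 TPM at E17 and at 13.04, 14.3 and 11.9 at P7 (log2 fold change 2.72 ± 0.35, adjusted p = 5.13e-05), and the other call was Itgax.

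Of 32 glucocorticoid-responsive transcripts 4 rose (12.5%, beside 3.09% of all transcripts) and none fell, with a median log2 fold change of 0.34. Without E17 Saline 3 or P7 Saline 1 the count that rose was 2. Nr3c1, the glucocorticoid receptor itself, was at 71.9, 64.2 and 70.0 TPM at E17 and at 119, 109 and 114 at P7, with no overlap and a small spread (log2 fold change 0.72 ± 0.09, adjusted p = 4.85e-05). Nfkbia, the inhibitor of NF-kappa-B, was at 1111, 1324 and 1037 TPM at E17 and at 2485, 2188 and 2262 at P7 (log2 fold change 1.00 ± 0.18, adjusted p = 0.0016). Klf9 rose from 10.1, 5.83 and 8.78 TPM to 48.3, 28.0 and 16.7, and Arrdc2 from 29.5, 33.1 and 23.3 TPM to 71.8, 52.8 and 45.9. Of 35 immediate early transcripts, which also respond to the dissociation of tissue, 4 rose and none fell, and 1 to 3 rose without 1 library; their summed level is given above beside Cxcl2. Nfkbia is on both lists, and the part of dissociation in its rise was not tested. Of 22 heat shock transcripts 1 fell, the chaperone Hspa4, and their sum was 6686 to 6903 TPM at E17 and 4742 to 5751 at P7.

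Cholesterol synthesis had 22 of 23 transcripts above 0 and a median log2 fold change of 0.44, but 1 call, Insig1, a brake on sterol synthesis, which rose from 101, 106 and 99.5 TPM to 129, 191 and 170 (adjusted p = 0.0226). In lipid efflux and storage Mylip, which degrades the LDL receptor, rose from 175, 244 and 187 TPM to 430, 307 and 351, and Pltp, a phospholipid transfer protein that endothelial cells also make, from 279, 108 and 190 TPM to 412, 440 and 410. Of the remaining lists, 1 of 42 transcripts of apoptotic cell clearance rose (2.38%, Timd4) and 1 of 29 of iron and heme handling (3.45%). In integrins and matrix 3 of 46 rose (6.52%) and 1 fell (2.17%). Of 28 transcripts of purinergic receptors and nucleotide enzymes 3 rose (10.7%), with the potassium channel Kcnj2 at a log2 fold change of 0.78, and 26 lay above 0. The count was 1 without E17 Saline 2, E17 Saline 3 or P7 Saline 1.

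**Figure D3:**
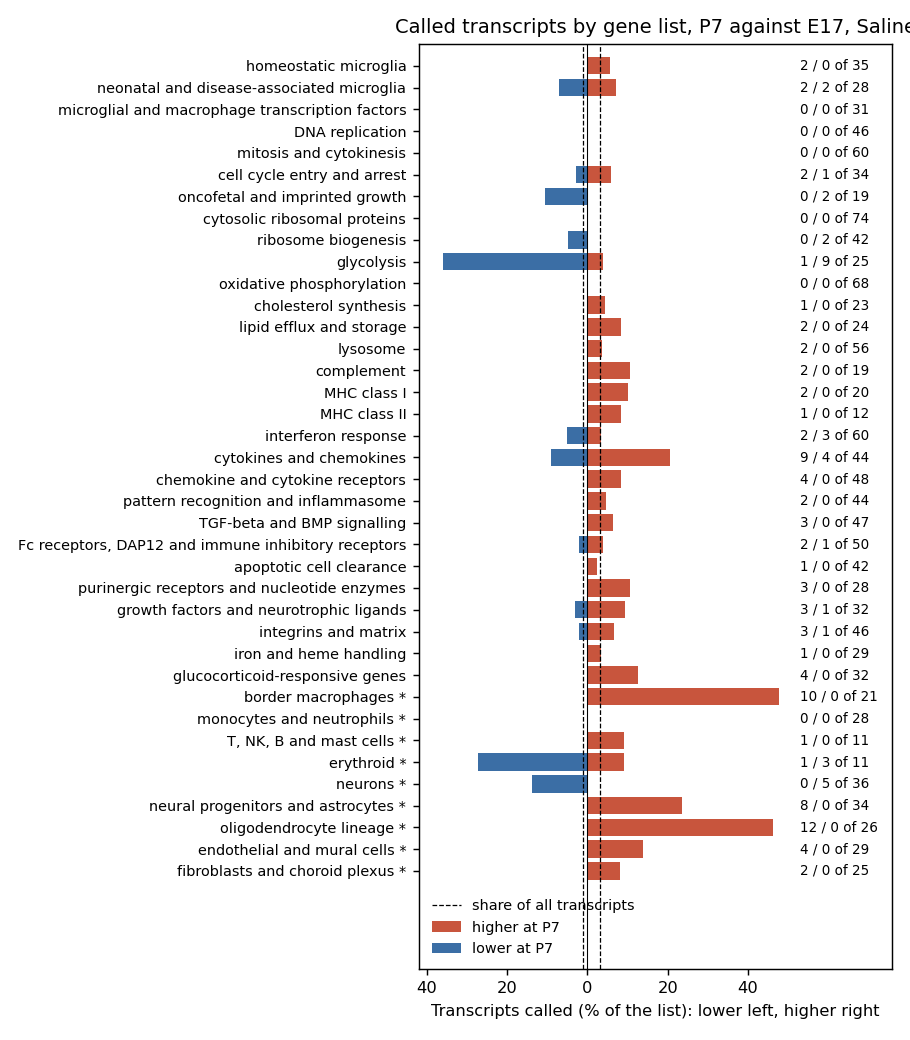
Share of each list's transcripts that rose (right, red) or fell (left, blue) from E17 to P7 in Saline offspring, with the shares of all transcripts (3.09% and 1.23%) as broken lines, the counts higher and lower at the right, and lists of other cells marked by a star. Glycolysis stands out to the left, and border macrophages and the oligodendrocyte lineage to the right.

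Many of the largest changes were in genes of cells other than parenchymal microglia. In bulk RNA, more cells of a type and more RNA per cell cannot be told apart. Of 21 transcripts of border macrophages, the resident macrophages of the meninges and perivascular space, 10 rose (47.6%) and none fell, 6 to 8 rose without 1 library (6 without E17 Saline 2), and their sum was 3075 to 3913 TPM at E17 and 4067 to 4476 at P7. Cd209f, a C-type lectin, was at 1.33, 2.17 and 0.61 TPM at E17 and at 22.2, 36.2 and 39.3 at P7, a log2 fold change of 3.84 ± 0.41 (adjusted p = 3.25e-06). Cbr2, a carbonyl reductase, was at 21.3, 25.7 and 22.8 TPM at E17 and at 114, 129 and 120 at P7 (log2 fold change 2.33 ± 0.22, adjusted p = 7.73e-07). Mrc1, the mannose receptor CD206, rose from 424, 553 and 470 TPM to 680, 873 and 983, the chemokine Ccl24 from 31.1, 38.3 and 41.7 TPM to 87.7, 114 and 173, and the chemokine Ccl8 from 2.07, 1.71 and 0.44 TPM to 18.0, 18.5 and 13.5. Lyve1, a hyaluronan receptor of these cells, was at 116, 197 and 140 TPM at E17 and at 285, 262 and 269 at P7 and did not pass (adjusted p = 0.161).

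The largest rise of any transcript at 10 TPM or more was Retnla (NM_020509, gene at chr16:48842609-48844461), a secreted protein of alternatively activated macrophages. It was at 0.71, 0 and 0 TPM at E17 and at 342, 263 and 132 at P7, for a log2 fold change of 7.58 ± 0.45 (adjusted p = 1.54e-10) that depends on the pseudocount. Mgl2, a galactose-binding lectin of macrophages picked after its values were seen, was at 7.36, 8.32 and 8.67 TPM at E17 and at 45.7, 45.8 and 39.3 at P7. Of 28 monocyte and neutrophil transcripts none passed, with a median log2 fold change of -0.90 and 20 of 28 below 0. When only the groups compared were fitted 6 of them fell, and 2 with the replicate block. Their sum was 2419 to 2498 TPM at E17 and 2075 to 2228 at P7. Among 11 transcripts of T, NK, B and mast cells, of which 7 averaged under 1 TPM at each age, Cd4 rose from 3.14, 4.45 and 3.26 TPM to 20.5, 13.5 and 11.8.

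Genes of glia made up most of the other large rises. Of 26 transcripts of the oligodendrocyte lineage 12 rose (46.2%) and none fell, 8 to 9 rose without 1 library, and their sum was 174 to 245 TPM at E17 and 608 to 1052 at P7. Ugt8a, which makes the galactolipids of myelin, was at 0.82, 0.18 and 0.81 TPM at E17 and at 26.0, 52.9 and 25.6 at P7 (log2 fold change 4.43 ± 0.60, adjusted p = 8.14e-05). Gpr17, a receptor of oligodendrocyte progenitors on their way to myelin, rose from 5.21, 3.03 and 3.58 TPM to 46.4, 106 and 90.8, Sox10, the lineage's transcription factor, from 4.52, 2.26 and 3.22 TPM to 50.1, 56.2 and 35.5, and the myelin glycoprotein Mag from 12.4, 14.9 and 13.6 TPM to 71.6, 121 and 56.1. The myelin regulator Myrf (log2 fold change 3.06), the fatty acid hydroxylase Fa2h (3.45), the phosphodiesterase Cnp (3.35) and the long RNA 9630013A20Rik (3.38), which is on no list, rose as well.

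Of 34 transcripts of neural progenitors and astrocytes 8 rose (23.5%, beside 3.09% of all transcripts) and none fell. The count that rose was 4 without E17 Saline 2, E17 Saline 3, P7 Saline 1 or P7 Saline 2. The sums of the list were 3569 to 6085 TPM at E17 and 5621 to 7279 at P7. Gfap, the filament protein of astrocytes, was at 3.58, 2.41 and 1.81 TPM at E17 and at 87.0, 101 and 52.6 at P7 (log2 fold change 4.47 ± 0.57, adjusted p = 4.17e-05). The neurotensin receptor Ntsr2 was at 1.91, 0.42 and 0.87 TPM at E17 and at 16.96, 28.7 and 15.4 at P7, and Bcan, a proteoglycan of the brain matrix, rose from 19.9, 8.50 and 15.5 TPM to 78.3, 108 and 70.3. Gpr37l1, a receptor of glia that was on no list, was at 2.25, 0.97 and 0.89 TPM at E17 and at 58.9, 118 and 68.7 at P7 (log2 fold change 5.11 ± 0.52, adjusted p = 1.6e-06). That was the second largest rise at 10 TPM or more on the log2(TPM + 1) scale. Its ratio of mean TPM, 59.6, was below the 129 of Cnp, so the rank depends on the scale. Of 29 endothelial and mural transcripts 4 rose (13.8%), among them the organic anion transporter Slco1a4, from 16.1, 6.69 and 14.6 TPM to 37.5, 58.6 and 54.9. Of 25 of fibroblasts and choroid plexus 2 rose (8.0%), among them Col1a1 (log2 fold change 1.32).

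The neuronal and embryonic globin genes that passed fell. Of 36 neuronal transcripts 5 fell (13.9%) and none rose, 2 to 4 fell without 1 library and 12 with the other-cell covariate, and their sum was 507 to 1028 TPM at E17 and 328 to 406 at P7. Neurod6, a transcription factor of cortical excitatory neurons, was at 30.5, 16.8 and 31.5 TPM at E17 and at 1.34, 1.64 and 2.57 at P7 (log2 fold change -3.23 ± 0.52, adjusted p = 0.000661). Tbr1, another factor of these neurons, fell from 14.7, 7.20 and 12.1 TPM to 0.79, 0.83 and 0.64, Neurod2 from 34.6, 25.2 and 37.7 TPM to 5.27, 7.97 and 8.31, and Mpped1, which is on no list, from 37.5, 20.8 and 30.9 TPM to 3.39, 2.90 and 3.54. Tubb3, a neuronal tubulin, was at 204, 103 and 185 TPM at E17 and at 31.8, 45.8 and 58.9 at P7 without passing (adjusted p = 0.0962). Hba-x, the zeta globin of the embryo, was at 7.04, 12.8 and 26.5 TPM at E17 and listed at 0 in all 3 P7 libraries, and the embryonic globin Hbb-y fell from 7.85, 10.9 and 19.9 TPM to 1.70, 2.67 and 0.75. Of 11 erythroid transcripts 3 fell and 1 rose, and their sum was 276 to 531 TPM at E17 and 466 to 646 at P7. The part of RNA from these cells in the other changes was not tested.

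**Figure D4:**
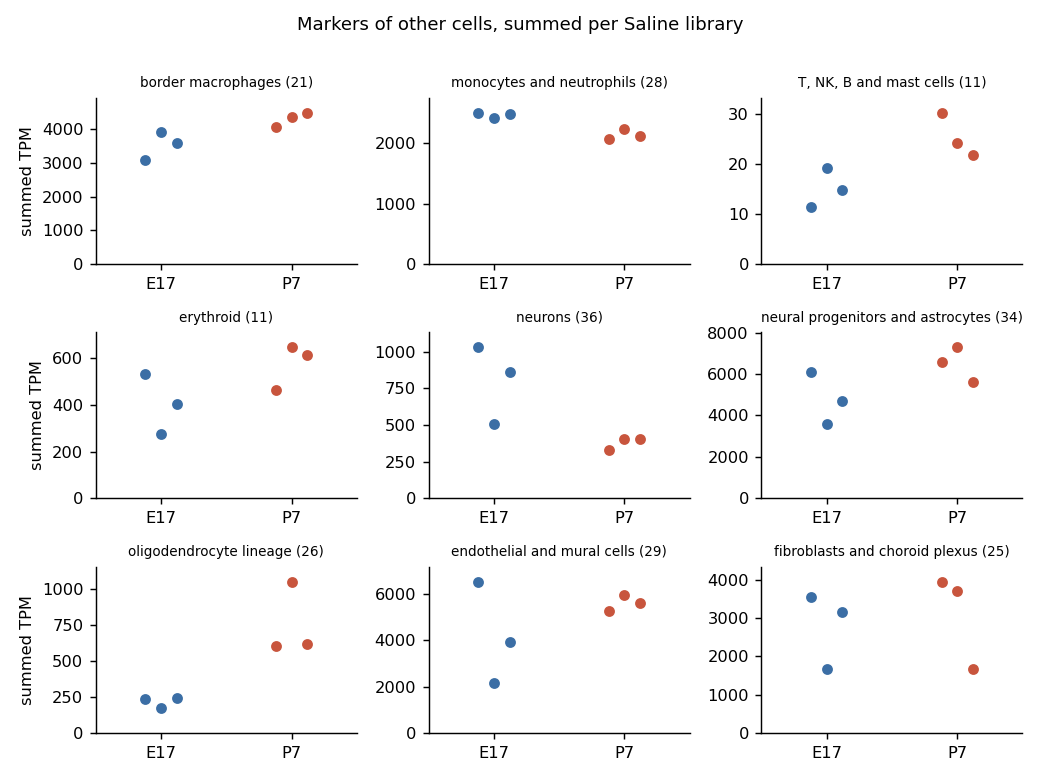
Summed TPM of the markers of 9 kinds of other cells in each E17 Saline (blue) and P7 Saline (red) library, with the number of transcripts of each list in brackets. The oligodendrocyte lineage is higher and the neuronal sum lower in every P7 library, and E17 Saline 2 holds the lowest sum of neuronal, progenitor and endothelial markers among the E17 libraries.

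The rest of the largest falls belonged to no list or to none of these groups. Srxn1, which restores oxidized peroxiredoxins, was at 162, 95.1 and 146 TPM at E17 and at 18.6, 31.3 and 35.9 at P7, a log2 fold change of -2.21 ± 0.29 (adjusted p = 5.67e-05). Olfm4, a secreted glycoprotein of neutrophils and gut, was at 80.8, 85.5 and 85.9 TPM at E17 and at 21.8, 14.2 and 11.96 at P7 (adjusted p = 0.00785). Mn1, a transcriptional co-regulator, fell from 27.4, 12.3 and 21.6 TPM to 4.32, 5.28 and 4.63. Gm5416, whose reads may be shared with related stefin genes, fell from 22.3, 35.0 and 38.8 TPM to 8.92, 12.04 and 0.78 and is uncertain. The precursor of a microRNA, Mir7035, met the rule for large rises with 0 TPM listed in all E17 libraries and 19.2, 2.88 and 14.1 at P7. Its log2 fold change in MIA offspring was -0.03; poly(A) libraries may capture such precursors incompletely, and it is given as listed.

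Across the later ages the genes that changed between E17 and P7 took different courses, which are given as means without a test. Gpnmb was at 65.1 TPM at E17, 235 at P7, 3.58 at P20 and 2.24 at P60, and Atp6v0d2 at 4.43, 28.8, 0.35 and 0.573, so that both were highest at P7. Slc16a1 was at 70.9, 529, 165 and 96.3 TPM and Mrc1 at 482, 845, 306 and 195 over the same ages. Gdf15 was at 30, 260, 951 and 119 TPM, with its highest mean at P20. Tpi1, at 540, 248, 160 and 177 TPM, and Igf2bp1, at 9.78, 0.843, 0.143 and 0.08, had lower means at P20 and P60 than at P7. H2-Aa, at 24.1, 55.4, 180 and 375 TPM, and Nr3c1, at 68.7, 114, 149 and 184, had a higher mean at each later age. Of genes that did not pass between E17 and P7, Tmem119 was at 486, 494, 2974 and 2993 TPM, P2ry12 at 1497, 1964, 3619 and 3974, and Mki67 at 162, 182, 4 and 3.27, so that their means lay further apart between P7 and P20 than between E17 and P7.

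**Figure D5:**
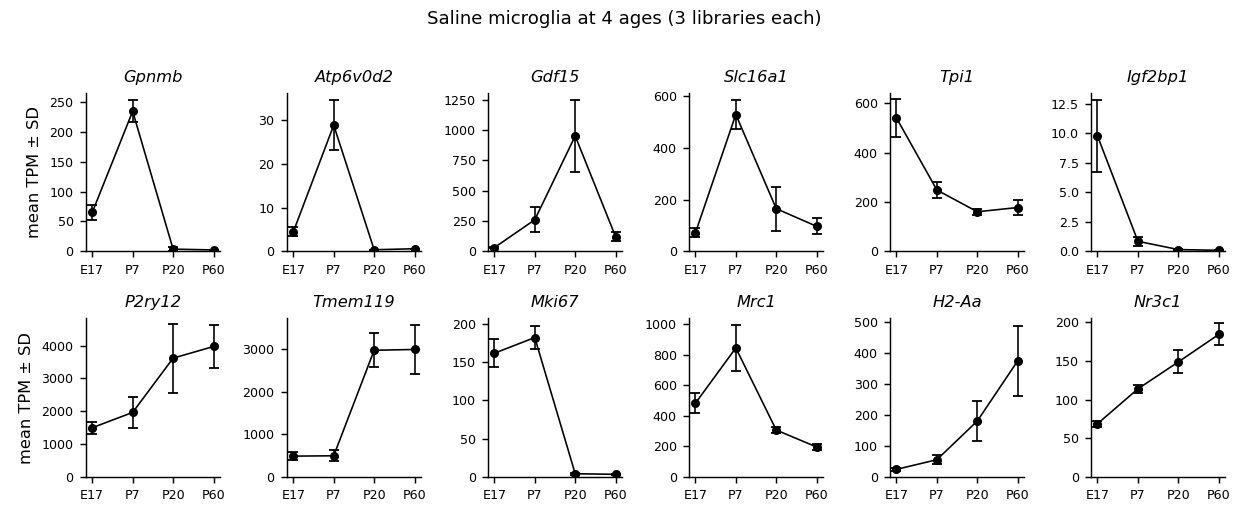
Mean TPM and SD of 12 genes in Saline offspring at E17, P7, P20 and P60 (3 libraries each, P60 on control chow). Gpnmb, Atp6v0d2, Slc16a1 and Mrc1 have their highest mean at P7, Gdf15 at P20, while the means of Tmem119 and Mki67 lie close together at E17 and P7 and far apart at P7 and P20.

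The same age step in MIA offspring, whose libraries do not enter the Saline fold changes, gave 340 calls (2.39% of transcripts), 226 higher and 114 lower. That count was 10 (7 higher and 3 lower) when the fit held only the groups compared, 789 with the other-cell covariate, and 180, 499 and 248 without E17 MIA 1, 2 and 3 and 174, 160 and 329 without P7 MIA 1, 2 and 3 in turn, and the overlap that follows rests on the 340. Of the 615 transcripts called in Saline offspring, 603 (98.0%) had the same sign in MIA offspring, beside 69.0% of all transcripts. Of the 615, 230 (37.4%) were also called in MIA offspring, which is 67.6% of the 340. Both sets of calls took their spread from 1 fit of all 30 libraries and are not independent. The median log2 fold change of the transcripts that rose in Saline offspring was 1.00 there and 0.78 in MIA offspring, and that of those that fell was -0.82 and -0.47; since these transcripts were chosen on the Saline libraries, their Saline medians are no independent measure. Retnla was at 0 TPM in all 3 E17 MIA libraries and at 299, 256 and 103 at P7, Gdf15 at 17.6, 37.3 and 25.2 and then at 243, 138 and 305, and Atp6v0d2 at 2.29, 5.41 and 2.57 and then at 34.0, 21.6 and 16.6. Tpi1 was at 414, 563 and 509 TPM in E17 MIA and at 303, 293 and 248 in P7 MIA, a log2 fold change of -0.81.

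The difference between the 2 age steps was tested directly, and limma called 0 transcripts (smallest adjusted p = 0.996), with 275 (1.93%) at an unadjusted p under 0.05. The smallest unadjusted p belonged to Thumpd2, a putative RNA methyltransferase, with 10.9, 10.01 and 11.6 TPM at E17 and 22.8, 19.6 and 14.7 at P7 in Saline offspring, and 16.7, 13.8 and 13.5 and then 12.6, 13.1 and 13.7 in MIA offspring (difference of log2 fold changes -0.89 ± 0.22). Alkbh5, an RNA demethylase (-0.42), and Snhg17 (-0.82) followed in that direction, and H2-DMb2 (1.36), Mir3960 (0.70) and Il1rn (1.16) in the other, all with an adjusted p of 0.996.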

How the data were processed

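RNA of CD11B bead-isolated cells was measured in 30 libraries, 3 per group. The authors prepared non-stranded poly(A) libraries and processed the reads on mm10, with Rsubread for alignment, featureCounts for counting and a CPM minimum. The deposited values are TPM computed by the authors, with module labels beside them that come from clustering these same libraries and were not used.

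In R 4.3.3, limma 3.58.1 was fitted to log2(TPM + 1) of all 30 libraries (1 mean per group, 20 residual degrees of freedom, moderation with a trend), with two-sided contrasts and Benjamini-Hochberg adjustment at 0.05 over 14225 transcripts. TPM as deposited do not allow a count model. In simulated data for this comparison, 50 transcripts were changed at each size, all with a mean log2(TPM + 1) above 3. Of these 30% were called at a log2 change of 0.5, 78% at 1, 96% at 2 and 98% at 3. Among the 14225 transcripts fitted, 8 unchanged ones were called as well. The noise was independent between libraries, so these shares do not cover lower transcripts or effects of whole libraries. Depth was estimated from the steps between low TPM and transcript lengths. Coordinates came from RefSeq on GRCm38.p6, with 14204 transcripts (99.9%) matched. The labels give no sequencing batch. The p-values rest on a spread shared by all 30 libraries, pooled at E17 and P7 and of 1 brain each at P20 and P60. With only the groups compared in the fit, 519 transcripts were called in Saline offspring.

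Named genes are the 12 largest rises and falls among called transcripts with no overlap and a mean of at least 10 TPM in the higher group, up to 3 called members each way of each list, and the 3 smallest p each way for the difference. Other genes are said to be chosen after their values were seen, or complete a list; Nr3c1, Mrc1, Ccl24, Tnf, Mag, Myrf, Lyve1, Tubb3 and Upk1b were chosen so too. The comparison, members and lists were chosen with earlier results of these data known. Alternatives were another pseudocount, a filter at a mean of 1 TPM, other scalings, a fit of the compared groups alone, no trend, a replicate block, a covariate of other-cell markers, and leaving out each library. Some members of the lists are not reported here.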

Additional observations from a re-analysis of the deposited data

How the results depend on the processing

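The number of transcripts called in Saline offspring stayed between 519 and 654 under the other pseudocount, the filter, both scalings, the fit of the groups compared alone, no trend and the block, and was 286 with a log2 fold change of at least 1 in addition and 1013 with the other-cell covariate. Leaving out 1 library gave 280 to 788. In MIA offspring the main count of 340 became 10 when the fit held only the 6 libraries of the groups compared. It was 789 with the covariate and 160 to 499 without 1 library, and the cause was not tested. The difference between the age steps gave 0 calls under each alternative. Of the 106 named and called genes, 45 kept their call under each of the 14 alternatives, 61 lost it under at least 1, most often without 1 library, and none changed sign. Among genes that did not pass, Tmem119 changed sign after median-ratio scaling (-0.0656) and without 1 library (-0.1523 to 0.2507), Cx3cr1 after quantile normalization (0.0367), with the covariate (0.112) and without 1 library (-0.160 to 0.118), and Spi1 with the covariate (0.0870) and without 1 library (-0.158 to 0.0041). Replicate numbers did not pair the Saline libraries (same-number correlations -0.132 to -0.0032), and with the replicate block 576 transcripts were called in Saline and 320 in MIA offspring, against 615 and 340. Depth limits levels near 1 TPM.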

Other observations

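Some further genes outside the lists, picked after their values were seen, are given as values. G6pdx, the entry enzyme of the pentose phosphate pathway, was at 116, 136 and 132 TPM at E17 and at 51.4, 92.5 and 101 at P7 (log2 fold change -0.70 ± 0.17, adjusted p = 0.0194), and Pgd, the dehydrogenase that follows in that pathway, at 362, 448 and 429 and then at 204, 297 and 292 (adjusted p = 0.0417). Pygl, a glycogen phosphorylase, fell from 128, 149 and 135 TPM to 69.3, 83.0 and 77.8, and Glrx, a glutaredoxin, from 78.7, 72.3 and 86.0 TPM to 38.0, 46.2 and 49.4. The call of G6pdx was lost under 4 of the 14 alternatives and those of Pgd and Pygl under 9 each, Pygl without each of the 6 libraries.

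The circadian repressors Nr1d1 and Nr1d2 rose, from 19.2, 10.04 and 13.6 TPM to 47.1, 35.8 and 28.2 and from 32.2, 27.4 and 35.8 TPM to 90.6, 58.8 and 53.8 (log2 fold changes 1.33 ± 0.36 and 1.04 ± 0.23). The cold-inducible RNA-binding protein Rbm3 was at 15.2, 27.3 and 13.1 TPM at E17 and at 46.2, 29.8 and 41.3 at P7 (adjusted p = 0.0176). Its relative Cirbp was at 123, 103 and 131 TPM at E17 and at 551, 237 and 131 at P7 (adjusted p = 0.0412), with the whole rise in P7 Saline 1 and 2.

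For the lists of DNA replication and mitosis, in which no transcript passed, the promoters held the letters of cell cycle elements more often than promoters of all measured genes. TTTGGCGC or TTTCGCGC, forms of the E2F element, were in 9 of 33 DNA replication promoters (27.3%) and in 150 of 10525 in all (1.43%). TTTGAA, the core of the cell cycle homology region, was in 34 of 49 mitosis promoters (69.4%) and in 11.97% of all, on either strand.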
